A study of Arabidopsis thaliana with 20 samples.

Results

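The genes described here are 10 regulators through which *Arabidopsis thaliana* starts flowers: *LEAFY* (*LFY*, AT5G61850), *APETALA1* (*AP1*, AT1G69120), *CAULIFLOWER* (*CAL*, AT1G26310), *FRUITFULL* (*FUL*, AT5G60910), *UNUSUAL FLORAL ORGANS* (*UFO*, AT1G30950), *SUPPRESSOR OF OVEREXPRESSION OF CO 1* (*SOC1*, AT2G45660), *AGAMOUS-LIKE 24* (*AGL24*, AT4G24540), *AGAMOUS-LIKE 42* (*AGL42*, AT5G62165), *LATE MERISTEM IDENTITY 1* (*LMI1*, AT5G03790) and *PUCHI* (AT5G18560). They were picked by name, as floral integrators and floral meristem identity genes, from the 27562 loci measured, and all 10 were present in the files. RNA was sequenced from hand-dissected shoot apical meristems (SAM) and inflorescence meristems (IM), each from wild-type Col-0 and from the double mutant *plt3 plt7*, with 5 libraries in each of the 4 groups. The mutant carries CRISPR-induced mutations in *PLETHORA 3* and *PLETHORA 7* in the Col-0 background, and it was the only mutant genotype compared. The study describes both as transcription factor genes expressed in SAM and IM, and also in growing leaves and flowers. SAMs came from seedlings on agar at 7 d post germination (dpg) and IMs from plants on soil at 31 to 33 dpg, each library pooled about 50 meristems, and the labels number the libraries as biological replicates. According to the study's methods, the SAM pieces had been freed of the cotyledons, the first true leaves and the hypocotyl except for a remainder, and the IM pieces kept the youngest flower primordia. Expression in IM is therefore that of meristem and early flowers together, and in such bulk samples fewer cells of a type and less RNA per cell cannot be told apart.

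Floral integrators such as SOC1 and AGL24, MADS-domain transcription factors, collect signals from day length, temperature, age and hormones and act on *LFY* in the shoot apex. LFY is a plant-specific transcription factor that turns on *AP1* and *CAL*, and together these commit a primordium to becoming a flower, while UFO, an F-box protein, works with LFY to switch on petal and stamen genes. FUL acts partly in parallel with AP1 and CAL, LMI1 is a homeodomain leucine zipper factor downstream of LFY, PUCHI is an AP2-type factor of young flower primordia, and AGL42 is a relative of SOC1.

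The promoters of the closely related genes *AP1*, *CAL* and *FUL* are shown first, because these 3 genes went from near 0 in SAM to high levels in IM, as *AGL42*, shown further on, did too. Each sequence is the 250 bases before the annotated start of the gene in the TAIR10.1 assembly and RefSeq annotation, written from 5′ to 3′ on the strand of the gene, with capitals where the letters CCANTG, the core of the LFY recognition sequence, occur on either strand.
*AP1* (chr1:25986350-25986599, - strand): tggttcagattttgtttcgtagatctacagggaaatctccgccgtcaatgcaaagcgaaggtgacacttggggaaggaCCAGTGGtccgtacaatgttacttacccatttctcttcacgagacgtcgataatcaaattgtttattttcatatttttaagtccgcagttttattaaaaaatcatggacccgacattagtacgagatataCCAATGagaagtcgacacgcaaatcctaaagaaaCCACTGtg
*CAL* (chr1:9103645-9103894, - strand): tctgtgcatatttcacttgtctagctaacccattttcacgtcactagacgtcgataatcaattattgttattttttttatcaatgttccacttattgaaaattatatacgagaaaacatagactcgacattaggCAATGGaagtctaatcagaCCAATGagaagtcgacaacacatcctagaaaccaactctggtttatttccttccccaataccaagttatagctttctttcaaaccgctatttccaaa
*FUL* (chr5:24506270-24506519, - strand): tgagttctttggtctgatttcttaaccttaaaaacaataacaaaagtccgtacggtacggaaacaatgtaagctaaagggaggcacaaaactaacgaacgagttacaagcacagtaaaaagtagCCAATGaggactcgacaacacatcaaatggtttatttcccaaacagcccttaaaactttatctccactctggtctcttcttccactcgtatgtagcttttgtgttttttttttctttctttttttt
The letters CCANTG or their reverse complement occurred 4 times in the *AP1* window, of which one pair overlapped, 2 times in *CAL* and 1 time in *FUL*. *AGL24* had 1 match and the other 6 genes none, so that 4 of the 10 genes had one, whereas 20.8% of the 27561 promoters of protein-coding genes, cut to the same length, did. A longer stretch, CCAATGAGNANTCGACA, was noticed by reading the 3 sequences. It was built outward from a CCANTG match that all 3 share and then searched on both strands. Its presence in these 3 windows and its overlap with CCANTG were therefore fixed by how it was built. The stretch began 42 bases before the start of *AP1*, 97 before *CAL* and 126 before *FUL*. Among the 27561 windows these were the 3 that held it, 0.0109% of all, and so long a stretch would seldom recur elsewhere in any case. The CArG box, to which MADS-domain proteins bind, was found in 1 of the 10 windows, that of *LMI1*, against 2.52% of all, and the letters GTAC, the core bound by SPL factors, in 4 of 10 (*AP1*, *FUL*, *SOC1* and *LMI1*) against 34.3%. No GTAC match overlapped another motif in these windows, and a match describes the sequence and does not show binding.

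Library totals ran from 24.8 to 114.9 megacounts, and the library with the highest total, *plt3 plt7* IM replicate 3, also had the shortest mean fragment length of its group (287 nt, against a group maximum of 438 nt). *PLT3* TPM (a transcript level scaled by transcript length and by the library total, so that each library sums to the same value) was 5.68 to 9.54 in Col-0 SAM and 3.48 to 4.41 in the mutant, and 18.5 to 24.7 against 11.3 to 13.7 in IM, without overlap in either tissue, whereas *PLT7* overlapped (2.92 to 8.17 against 3.10 to 4.24 TPM in SAM, 13.2 to 16.8 against 10.97 to 15.0 in IM). A level of mRNA does not report on the mutated protein. Summed TPM of 4 meristem markers (*STM*, *KNAT1*, *WUS* and *CLV3*) was 22.1 to 49.3 in SAM and 80.1 to 102.7 in IM. Of these *CLV3* alone had a lower mean in IM than in SAM, 1.26 against 2.43 TPM in Col-0 and 0.428 against 2.10 TPM in *plt3 plt7*. The 4 green leaf markers summed to between 18029 and 30589 TPM in SAM and between 3434 and 4320 TPM in IM, and 4 markers of differentiating anthers to at most 0.187 TPM in SAM and to between 10.2 and 61.2 TPM in IM. Transcripts typical of green leaves were thus abundant in the SAM libraries of both genotypes. Of the anther markers, *AMS*, *DYT1* and *TDF1* were present in the IM libraries of both genotypes. The other, *MS2*, was listed at 0 in 3 of 5 Col-0 and 4 of 5 *plt3 plt7* IM libraries. Its highest level was 5.48 TPM, on 267 counts, in Col-0 IM and 0.0433 TPM, on 2 counts, in *plt3 plt7* IM.

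The first comparison asked how the 10 genes differed between IM and SAM within each genotype. In Col-0 their summed level was 31.4 ± 4.26 TPM in SAM and 387 ± 12.2 TPM in IM (SD, n = 5), and in *plt3 plt7* 28.7 ± 4.64 and 380 ± 36.6 TPM. A gene was called when its DESeq2 adjusted p was under 0.1 and the higher group exceeded the lower by more than 25%. By that rule 9 of the 10 genes were tested in each genotype and 9 were called, 8 higher and 1 lower in IM, where 57.1% of all genes tested were called in Col-0 (26.7% higher and 30.5% lower) and 57.8% in *plt3 plt7* (26.4% higher and 31.3% lower). The normalised counts of all 9 did not overlap between the tissues, which 57.9% of genes tested shared in Col-0 and 56.1% in *plt3 plt7*. Of these 9, only *LFY*, *UFO*, *SOC1*, *AGL24* and *LMI1* reached the count minimum in SAM as well as in IM. *AP1*, *CAL*, *FUL* and *AGL42* reached it in IM but not in SAM and so had to differ. Tissue goes with age, substrate, light and harvest in this design, and these cannot be told apart.

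**Figure D1:**
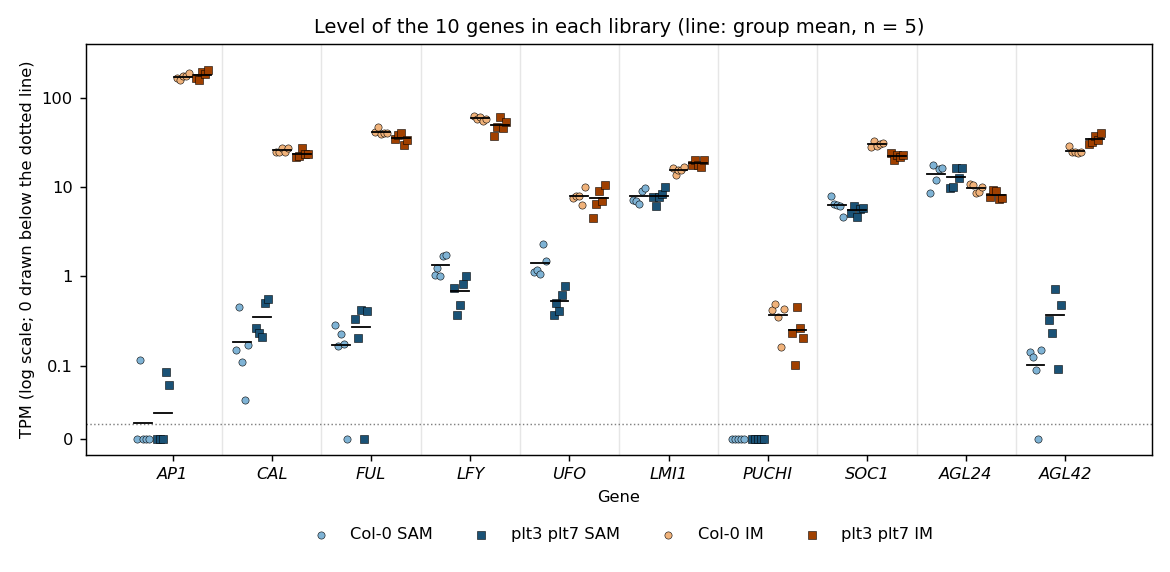
TPM of each gene in each library on a log axis, with 0 drawn below the dotted line, circles for Col-0 and squares for *plt3 plt7*, and a line at each group mean. *AP1* went from 0 to 0.114 TPM in SAM to between 156 and 206 TPM in IM, and *AGL24* alone had a lower mean in IM than in SAM in both genotypes.

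*AP1*, which specifies the floral meristem and later sepals and petals, had the highest IM level and was at or near 0 in SAM. It was listed at 0 TPM in 4 of 5 Col-0 SAM libraries and at 0.114 TPM in replicate 2, and at 0 in 3 of 5 mutant SAM libraries and at 0.085 and 0.061 TPM in replicates 4 and 5. In Col-0 IM it was 167, 156, 176, 173 and 190 TPM in replicates 1 to 5, and in *plt3 plt7* IM 164, 157, 196, 183 and 206 TPM. The tissues were thus fully separated. In Col-0 the 5 SAM libraries together held 3 counts and the IM libraries 34008, a ratio per total count of 7578 (95% exact counting interval 2593 to 36749), and in *plt3 plt7* 5 against 43811 counts, a ratio of 6045 (2590 to 18620). These intervals cover counting error only. *CAL*, the near-duplicate of *AP1*, was 0.183 ± 0.157 TPM in Col-0 SAM and 25.7 ± 1.34 TPM in IM (SD, n = 5), and 0.351 ± 0.162 and 23.5 ± 2.17 TPM in the mutant. Its SAM libraries held 1 to 23 counts. The log2 fold change of *CAL* was 6.85 ± 0.31 in Col-0 and 5.69 ± 0.22 in *plt3 plt7* (SE, DESeq2). Since *CAL* reached the count minimum through IM and had to differ, no p is given. *AP1* and *CAL* shared little sequence at the length used for counting, 1.49% of the 31-base words of *AP1* and 2.24% of those of *CAL*. *FUL*, which in addition shapes the fruit wall, went from 0.169 ± 0.105 TPM in Col-0 SAM to 41.8 ± 3.19 TPM in IM, and from 0.273 ± 0.176 to 35.2 ± 4.10 TPM in the mutant, log2 fold changes of 8.10 ± 0.37 and 6.70 ± 0.24. No SAM library had more than 17 counts of *FUL*.

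*LFY* was present at a low level in the SAM and rose steeply. Its level was 1.03, 1.23, 0.999, 1.67 and 1.74 TPM in Col-0 SAM and 62.9, 57.9, 60.2, 55.2 and 57.2 TPM in Col-0 IM. In the mutant it was 0.741, 0.368, 0.482, 0.810 and 0.996 TPM in SAM and 36.9, 47.5, 61.5, 45.2 and 54.1 TPM in IM. No SAM library came near any IM library, and the log2 fold change was 5.16 ± 0.14 in Col-0 (SE, a 35.8-fold rise) and 5.81 ± 0.19 in *plt3 plt7* (56.0-fold, DESeq2 adjusted p = 6.74e-194). In Col-0 IM the longer annotated *LFY* transcript (1378 nt) took 83.2% ± 1.37 of the estimated counts of *LFY*, and in *plt3 plt7* IM 81.8% ± 1.21 (SD, n = 5). *UFO* rose in both genotypes, from 1.42 ± 0.512 to 7.91 ± 1.34 TPM in Col-0 and from 0.534 ± 0.170 to 7.52 ± 2.39 TPM in *plt3 plt7* (SD, n = 5). The log2 fold changes were 2.17 ± 0.20 (DESeq2 adjusted p = 2.13e-26) and 3.45 ± 0.26 (1.39e-39). *LMI1* differed least among the genes that rose, from 7.85 ± 1.39 to 15.5 ± 1.13 TPM in Col-0 and from 7.98 ± 1.37 to 18.4 ± 1.504 TPM in the mutant, log2 fold changes of 0.70 ± 0.13 and 0.85 ± 0.12. *PUCHI* was not counted in any of the 10 SAM libraries and had 3 to 59 counts in the IM libraries, 0.370 ± 0.129 TPM in Col-0 and 0.249 ± 0.128 TPM in *plt3 plt7*. It did not reach the count minimum. Against an assumed 3 counts over the 5 SAM libraries, its pooled IM counts were 20.1-fold higher in Col-0 and 20.7-fold higher in *plt3 plt7*. These ratios leave out the spread between the IM libraries.

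Among the MADS-box genes *SOC1*, *AGL24* and *AGL42*, the first pair differed less between the tissues than *AGL42*. *SOC1* was already 6.26 ± 1.15 TPM in Col-0 SAM and reached 30.0 ± 1.83 TPM in IM, and in the mutant it went from 5.48 ± 0.598 to 22.3 ± 1.46 TPM (SD, n = 5). Its log2 fold change was 1.93 ± 0.14 in Col-0 (DESeq2 adjusted p = 2.53e-42) and 1.67 ± 0.09 in *plt3 plt7* (5.80e-69). *AGL24*, a partner of SOC1, was the gene with the highest level of the 10 in the SAM and fell in IM, from 14.1 ± 3.71 to 9.69 ± 0.965 TPM in Col-0 and from 13.0 ± 3.17 to 8.17 ± 0.911 TPM in *plt3 plt7*. Its log2 fold change on counts was -0.80 ± 0.16 (DESeq2 adjusted p = 8.18e-07) and -1.02 ± 0.16 (9.32e-10). Its TPM ranges nevertheless overlapped in Col-0, with 8.52 TPM in SAM replicate 1 and 10.7 TPM in IM replicate 1. *AGL42* behaved like *FUL* rather than like *SOC1*, with at most 21 counts in any SAM library and 24.1 to 39.9 TPM in IM, log2 fold changes of 7.61 ± 0.43 and 6.20 ± 0.23.

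**Figure D2:**
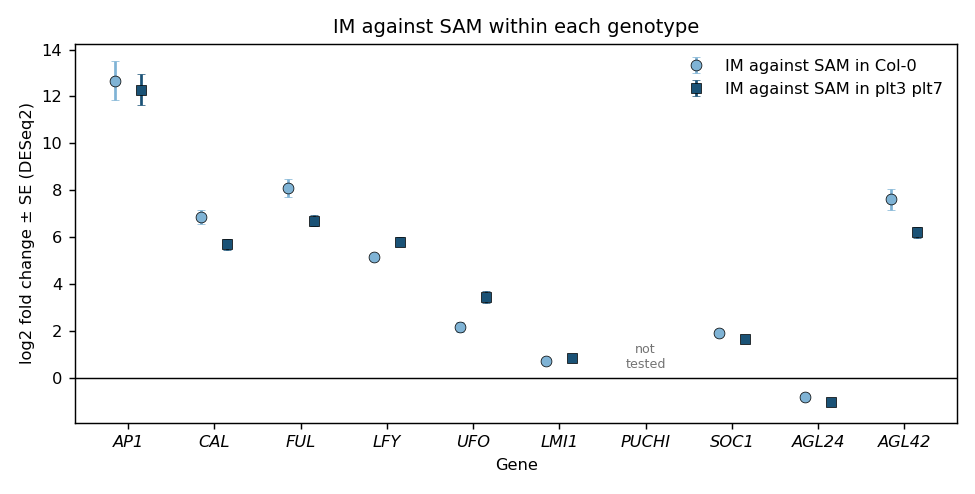
Log2 fold change of IM against SAM with its standard error (DESeq2), as circles for Col-0 and squares for *plt3 plt7*. The 9 genes tested lie on the same side of 0 in both genotypes, with *AP1* at 12.67 and 12.29 and *AGL24* at -0.80 and -1.02.

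The order of the levels differed between the tissues. In Col-0 IM the means ran from *AP1* through *LFY*, *FUL*, *SOC1*, *CAL*, *AGL42*, *LMI1*, *AGL24* and *UFO* to *PUCHI*. Neighbours in this order did not overlap between libraries, except *CAL* with *AGL42* and *AGL24* with *UFO*. In *plt3 plt7* IM *AGL42* stood above *CAL* and *SOC1* below it, and *LFY* with *FUL*, *FUL* with *AGL42*, *CAL* with *SOC1*, *SOC1* with *LMI1* and *AGL24* with *UFO* overlapped. In Col-0 SAM the order began with *AGL24*, *LMI1* and *SOC1*, each overlapping the next, then *UFO* and *LFY*, which overlapped, and the other 5 genes stayed under 0.45 TPM in every library.

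The second comparison asked whether the loss of *PLT3* and *PLT7* changed these genes in the vegetative SAM. *UFO* fell in *plt3 plt7*, and none of the other genes tested was called. Only 5 of the 10 genes reached the minimum of 10 counts in 5 libraries (*LFY*, *UFO*, *SOC1*, *AGL24* and *LMI1*), and 1 of these was called, where 0.453% of all genes tested were called and 0.162% were called lower.

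*UFO* was 1.11, 1.16, 1.06, 2.29 and 1.47 TPM in Col-0 SAM and 0.370, 0.495, 0.405, 0.615 and 0.786 TPM in *plt3 plt7* SAM. Every mutant library lay below every Col-0 library, although the counts were small, 38 to 75 in Col-0 and 15 to 43 in the mutant. The log2 fold change was -1.36 ± 0.31 (SE, DESeq2 adjusted p = 0.00736), which is 2.57-fold lower. Within the 4 harvest groups *UFO* was lower in the mutant in each, with log2 differences of TPM between -1.74 and -0.83 after adding 0.1 TPM. The call was lost with the edgeR quasi-likelihood test (adjusted p = 0.237), without Col-0 SAM replicate 4 (DESeq2 adjusted p = 0.532) and without *plt3 plt7* SAM replicate 4 (0.433), the direction being kept each time. The *UFO* promoter is shown as that of the only gene called in the SAM. It held none of the 3 motifs searched (capitals mark CCANTG alone, here as in the other windows).
*UFO* (chr1:11035742-11035991, + strand): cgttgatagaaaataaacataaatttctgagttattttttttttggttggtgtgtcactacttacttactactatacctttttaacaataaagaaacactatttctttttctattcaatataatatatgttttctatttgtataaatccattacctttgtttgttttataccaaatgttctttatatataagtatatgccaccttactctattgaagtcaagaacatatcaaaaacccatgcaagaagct

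*LFY* pointed the same way in the SAM but was not called. Its mutant libraries, at 0.368 to 0.996 TPM, all lay below the Col-0 libraries, at 0.999 to 1.74 TPM, the nearest of them by 0.003 TPM only, on 31 to 48 counts in Col-0 and 13 to 47 in the mutant. The log2 fold change was -0.89 ± 0.31 (SE, DESeq2 adjusted p = 0.330), and it was lower in each of the 4 harvest groups. In 1 fit of all 20 libraries, which shares the estimate of spread between tissues, the same contrast gave -0.87 with a DESeq2 adjusted p of 0.0202. By normalised counts 2 of the 5 genes tested, *LFY* and *UFO*, had groups that did not overlap, where 1.69% of all genes tested did. For *SOC1* the log2 fold change was -0.11 with a 95% interval of -0.44 to 0.22, for *AGL24* -0.07 (-0.42 to 0.27) and for *LMI1* 0.11 (-0.17 to 0.40), so that a change within these bounds could not be told from the spread. In both genotypes the SAM replicates 4 and 5 had the highest levels of *LFY* and of *UFO* and the lowest summed green leaf markers. These markers were 19797 and 18029 TPM in Col-0 replicates 4 and 5 against 22063 to 30589 TPM in the other Col-0 libraries, and 18695 and 19183 TPM against 21759 to 25044 TPM in the mutant. Between the genotypes the markers overlapped, and the part of leaf tissue in the difference was not tested.

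The remaining 5 genes were too low for a test in the SAM. *AP1* had 0 to 3 counts in a library, *CAL* 1 to 23, *FUL* 0 to 17, *AGL42* 0 to 21 and *PUCHI* 0. For *CAL* all 5 mutant libraries, at 0.209 to 0.552 TPM, were above the Col-0 mean of 0.183 TPM, but Col-0 replicate 2 had 0.449 TPM and the groups overlapped. *AGL42* was 0.143, 0.126, 0.088, 0 and 0.150 TPM in Col-0 SAM and 0.320, 0.231, 0.713, 0.092 and 0.474 TPM in *plt3 plt7* SAM. Only mutant replicate 4 fell within the Col-0 range, and in 1 fit of all 20 libraries, where the IM libraries let it pass the filter, *AGL42* was called higher in the mutant SAM (1.82 ± 0.49 on the log2 scale, DESeq2 adjusted p = 0.0597). At these counts the level is close to the limit of detection.

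**Figure D3:**
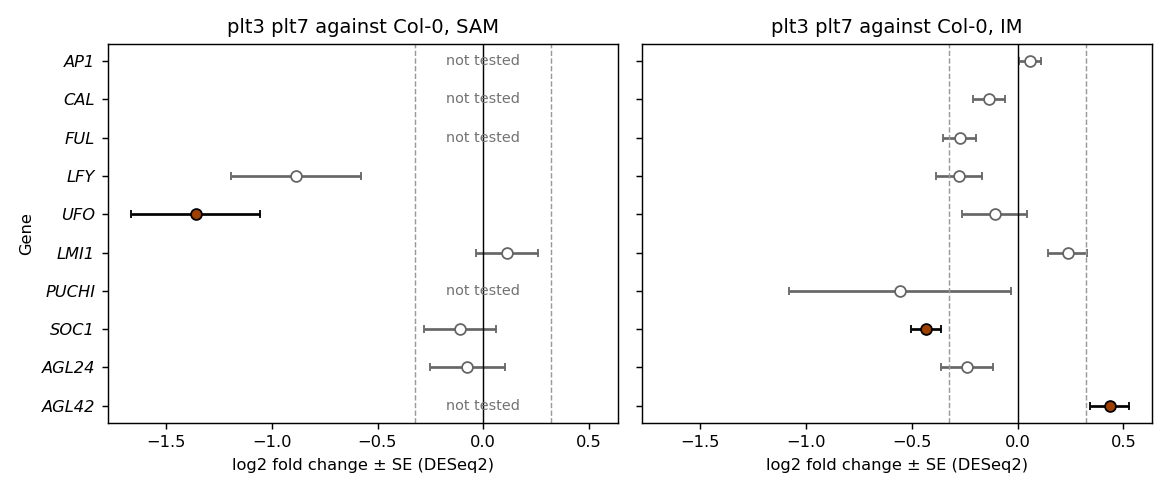
Log2 fold change of *plt3 plt7* against Col-0 with its standard error (DESeq2) in SAM and IM, filled where called, with dashed lines at the minimum change of 25%. In SAM *UFO* is filled at -1.36, and in IM *SOC1* at -0.43 and *AGL42* at 0.44.

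In the IM the 2 genes called were the related MADS-box genes *SOC1* and *AGL42*, in opposite directions. *SOC1* fell by 25.9% and *AGL42* rose by 35.2%, whereas *AP1*, *CAL* and *UFO* were not called. All 10 genes were tested in IM and 2 were called, 1 lower and 1 higher, where 1.53% of all genes tested were called, 0.458% higher and 1.07% lower. The median log2 fold change of the 10 was -0.19, and that of all genes tested -0.00484.

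*SOC1* was 28.0, 32.6, 28.7, 29.9 and 30.9 TPM in Col-0 IM and 23.8, 20.01, 23.1, 21.9 and 22.7 TPM in *plt3 plt7* IM. The groups did not overlap, and the spread within each was small. The log2 fold change was -0.43 ± 0.07 (SE, DESeq2 adjusted p = 3.47e-07). It lay between -0.47 and -0.38 in the 3 harvest groups, and *SOC1* was called in all 10 fits that left out 1 library and in all 9 other alternatives, edgeR included (adjusted p = 0.00928). The shorter annotated transcript (1431 nt) took 90.6% ± 1.79 of the estimated counts of *SOC1* in Col-0 and 92.3% ± 1.86 in the mutant (SD, n = 5). *AGL42* moved the other way. It was 28.5, 24.9, 24.7, 24.1 and 24.6 TPM in Col-0 IM and 30.7, 31.9, 37.1, 33.5 and 39.9 TPM in *plt3 plt7* IM, again without overlap. Its log2 fold change was 0.44 ± 0.09 (SE, DESeq2 adjusted p = 0.000519), with 0.23 to 0.70 in the 3 harvest groups, and it was called in all 10 fits without 1 library and with edgeR (adjusted p = 0.0523). The 17 annotated *AGL42* transcripts overlap strongly and none had a mean share above 14.5% of the gene, so that only their sum was read.

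Since both genes are measured per length, their ratio within a library can be given. *SOC1* TPM was 0.985 to 1.31 times that of *AGL42* in Col-0 IM and 0.570 to 0.776 times in *plt3 plt7* IM, so that *SOC1* was the higher of the pair in 4 of 5 Col-0 libraries and the lower in every mutant library. The promoters of this pair are shown because these are the genes called in IM. Neither held a CCANTG or CArG match, the *SOC1* window had 1 GTAC, 202 bases before the gene, and the *AGL42* window none.
*SOC1* (chr2:18811126-18811375, - strand): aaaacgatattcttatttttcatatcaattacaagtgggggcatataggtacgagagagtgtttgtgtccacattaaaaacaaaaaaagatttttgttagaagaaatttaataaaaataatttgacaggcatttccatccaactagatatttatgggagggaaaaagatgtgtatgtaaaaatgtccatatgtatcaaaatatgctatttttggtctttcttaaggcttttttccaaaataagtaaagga
*AGL42* (chr5:24964396-24964645, + strand): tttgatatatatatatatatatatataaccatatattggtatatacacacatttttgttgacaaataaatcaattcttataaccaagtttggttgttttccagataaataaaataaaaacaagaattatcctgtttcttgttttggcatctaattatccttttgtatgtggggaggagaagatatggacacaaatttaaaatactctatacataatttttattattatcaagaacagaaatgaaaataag

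Several of the other genes were near the limits of the call in IM. *FUL* was 41.0, 47.4, 39.5, 40.4 and 40.7 TPM in Col-0 and 34.9, 38.1, 40.0, 29.6 and 33.3 TPM in *plt3 plt7*. Its mutant libraries were below the Col-0 mean in 5 of 5 cases, with an overlap in TPM through mutant replicate 3 and none in normalised counts. The log2 fold change of -0.27 ± 0.08 passed the p threshold (DESeq2 adjusted p = 0.0370) but not the fold minimum, and without *plt3 plt7* IM replicate 3 it was -0.35 (DESeq2 adjusted p = 0.000115) and called. *LFY* had -0.28 ± 0.11 (SE, DESeq2 adjusted p = 0.233) and was called without the same library (-0.38, adjusted p = 0.00751). In that library *LFY* was 61.5 TPM and the summed anther markers 10.2 TPM, the highest and lowest of the mutant group, and in mutant replicate 1 *LFY* was 36.9 TPM and the anther markers 61.2 TPM, the lowest and highest. In these 2 libraries the anther markers thus ran opposite to *LFY*, and their part in the difference was not tested. In normalised counts 3 of the 10 genes, *FUL*, *SOC1* and *AGL42*, had genotypes that did not overlap in IM, where 2.50% of all genes tested did.

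*LMI1* was 16.4, 13.8, 15.3, 15.3 and 16.6 TPM in Col-0 IM and 17.5, 20.2, 17.5, 16.9 and 19.8 TPM in *plt3 plt7* IM. In TPM the groups did not overlap and in normalised counts they did, and the log2 fold change of 0.24 ± 0.09 was not called (DESeq2 adjusted p = 0.242). *AGL24* gave -0.24 with a 95% interval of -0.48 to 0.00024, *CAL* -0.13 (-0.28 to 0.02), *AP1* 0.06 (-0.04 to 0.16) and *UFO* -0.11 (-0.41 to 0.19). For *AP1*, the gene with the most counts, the interval allows a change of at most about 0.16 on the log2 scale. *PUCHI* had 5 to 27 counts in Col-0 and 3 to 59 in the mutant, with a log2 fold change of -0.56 ± 0.52 and no adjusted p, since DESeq2 set it aside for its low mean.

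**Figure D4:**
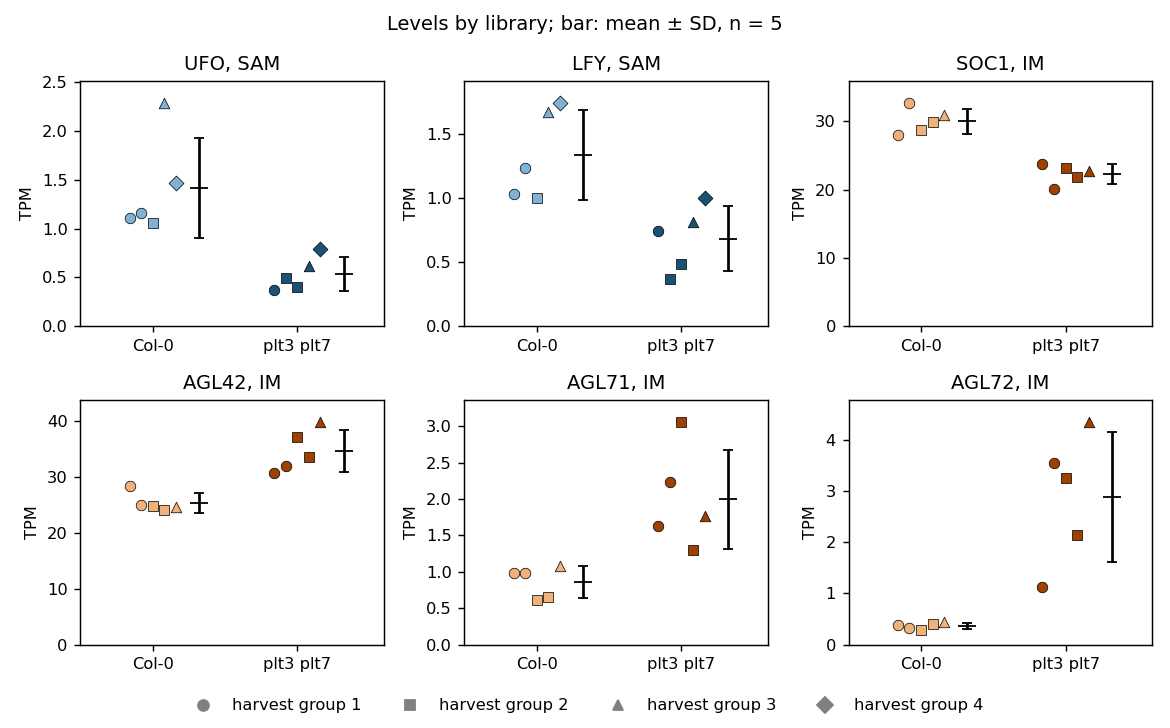
TPM per library of *UFO* and *LFY* in SAM and of *SOC1*, *AGL42*, *AGL71* and *AGL72* in IM, with marker shapes for the harvest groups and bars for mean ± SD of 5 libraries. In each panel the Col-0 and *plt3 plt7* libraries do not overlap, *SOC1* being lower in the mutant (20.01 to 23.8 against 28.0 to 32.6 TPM) and *AGL42* higher.

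The relatives of *SOC1* and *AGL42* in the MADS family were examined as a list of 5 (*AGL14*, *AGL17*, *AGL19*, *AGL71* and *AGL72*). In IM 2 of the 5 reached the count minimum, *AGL71* and *AGL72*. Both were called higher in *plt3 plt7*, where 0.458% of all genes tested were called higher, but for *AGL72* the filter fixed this direction. The list was chosen with earlier results of these data known. *AGL71* (AT5G51870) and *AGL72* (AT5G51860) lie next to each other on chromosome 5, from 21085462 to 21088414 and from 21081844 to 21084427 in TAIR10.1, and with *AGL42* form the part of the SOC1 group known to promote flowering redundantly. *AGL72* was 0.391, 0.322, 0.288, 0.399 and 0.439 TPM in Col-0 IM and 1.12, 3.56, 3.26, 2.15 and 4.36 TPM in *plt3 plt7* IM. It was higher in every mutant library, by 2.92 ± 0.47 on the log2 scale (SE, DESeq2). *AGL72* passed the filter through the mutant libraries alone, since no Col-0 library had more than 8 counts. It therefore had to come out higher, and no p is given. Without any 1 of the mutant libraries it was not tested. *AGL71* was 0.978, 0.988, 0.607, 0.653 and 1.08 TPM in Col-0 IM and 1.63, 2.23, 3.06, 1.301 and 1.76 TPM in *plt3 plt7* IM, also without overlap. Its log2 fold change was 1.29 ± 0.39 (DESeq2 adjusted p = 0.0441), on 9 to 21 counts in Col-0, and it was called in 4 of 10 fits that left out 1 library and not with edgeR (adjusted p = 0.152). Without Col-0 IM replicates 1, 2, 3 or 4 or *plt3 plt7* IM replicates 2 or 3 its DESeq2 adjusted p was 0.104, 0.119, 0.163, 0.143, 0.160 and 0.403. Neither gene shared a 31-base word with another locus. In the SAM *AGL71* was listed at 0 in all 5 mutant libraries and *AGL72* had at most 4 counts.

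Of 16 flowering-time regulators upstream of the integrators (*FT*, *TSF*, *FD* and *FDP* first among them), 12 were tested between genotypes in IM. Their median log2 fold change was 0.03, and 1 was called, where 1.53% of all genes tested were called. This was *FLC* (AT5G10140), a MADS-domain repressor of *SOC1* and *FT*, which was 0.984 to 2.05 TPM in Col-0 IM and 2.38 to 4.23 TPM in *plt3 plt7* IM. The groups did not overlap, and the log2 fold change was 1.198 ± 0.27 (SE, DESeq2 adjusted p = 0.00111). In the SAM, where *FLC* was 10.4 to 16.8 TPM in Col-0 and 10.7 to 16.2 TPM in the mutant, it was -0.07 ± 0.13 (DESeq2 adjusted p = 0.962). Its value is uncertain, because 60.6% of its 31-base words are shared with AT5G01675, a long noncoding RNA gene on the opposite strand, and how kallisto treated strand is not given in the sources used here. Of 16 partners and cofactors in flower initiation all 16 were tested in IM and 1 was called, where 1.53% of all genes tested were called. The gene was *DRNL* (AT1G24590), an AP2-type gene of organ founder cells. *DRNL* was 3.43 to 6.04 TPM in Col-0 IM and 1.40 to 3.53 TPM in the mutant, overlapping through mutant replicate 5, and its log2 fold change was -0.66 ± 0.21 (DESeq2 adjusted p = 0.0672, edgeR adjusted p = 0.224), called in 2 of the 10 fits without 1 library. Of 9 floral organ genes downstream of LFY, AP1 and UFO (*AG* and *AP3* among them), 9 were tested in IM and none was called between genotypes by DESeq2 or edgeR (1 had an unadjusted p under 0.05 with each), with a median log2 fold change of -0.06. Between the tissues only *SEP3* and *SEP4*, cofactors of the floral organ genes, reached the count minimum in SAM as well as in IM, and the other 7 had to differ. *SEP3* was higher in IM by 6.23 ± 0.46 on the log2 scale in Col-0 and 5.97 ± 0.35 in *plt3 plt7*, and *SEP4* by 3.59 ± 0.13 and 3.77 ± 0.14, and both were called in both genotypes, where 26.7% and 26.4% of all genes tested were called higher. In the SAM none of the 32 tested genes of these 4 lists was called between genotypes by DESeq2 or edgeR, and 3 and 4 of them had an unadjusted p under 0.05. Among the markers of other tissues 1 gene was called between genotypes in IM, the trichome gene *GL1*, at 1.58 to 3.04 TPM in Col-0 and 0.644 to 1.78 TPM in *plt3 plt7* (-1.05 ± 0.35 on the log2 scale, DESeq2 adjusted p = 0.0997), and it was called in 2 of 10 fits without 1 library.

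The last comparison asked whether the effect of the mutant differed between SAM and IM, through an interaction term fitted to the 20 libraries. Of the 10 genes 1 was called, *UFO*, where 0.354% of all genes tested were called, 0.108% in the direction of *UFO* and 0.246% in the other. The effect of the mutant on *UFO* was 1.24 ± 0.29 log2 units higher in IM than in SAM (SE, DESeq2 adjusted p = 0.0145), that is, -1.36 in SAM and -0.11 in IM. This call was also lost with edgeR (adjusted p = 0.191), without Col-0 SAM replicate 4 (DESeq2 adjusted p = 0.169) and without *plt3 plt7* SAM replicate 4 (0.170). The effect on *SOC1* had a difference of -0.33 with a 95% interval of -0.66 to 0.00310 (DESeq2 adjusted p = 0.605), so that its fall in IM was not shown to be particular to that tissue. For *LFY* the difference was 0.60 ± 0.24 (DESeq2 adjusted p = 0.464). *CAL* with -1.30 ± 0.39 (0.138), *FUL* with -1.42 ± 0.46 (0.205) and *AGL42* with -1.39 ± 0.50 (0.337) had effects that were lower in IM than in SAM, but these rest on the few SAM counts given above.

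Within a tissue the 10 genes varied together to different degrees, described here as Pearson correlations over the 10 libraries of a tissue, computed on log2(TPM + 1) after subtracting the mean of each genotype. They therefore describe variation among libraries of 1 genotype, which can come from depth and dissection, and not the difference between genotypes. In IM *LFY* went with *AGL42* (r = 0.79) and with *UFO* (0.79), *AP1* with *UFO* (0.77) and *FUL* with *AGL24* (0.74), whereas the correlation of *SOC1* with *AGL42* was -0.05. In SAM *LFY* went with *LMI1* (0.93) and with *UFO* (0.71). Across all 20 libraries, among 18391 genes with a mean of at least 1 TPM, the genes most like each of 4 members on the log2(TPM + 1) scale were found. Likeness here is dominated by the contrast between SAM and IM. For *AP1* these were *SEP1* (r = 1.00), AT5G57720 (1.00) and *AP3* (1.00), and for *LFY* AT3G11000, *GRF7* and *GH9B1* (each 0.997). *SOC1* was most like AT4G10265 (0.989), AT1G04660 (0.988) and AT5G56990 (0.988), and *UFO* most like *PMS1* (0.985), *HPY2* (0.983) and *ERL2* (0.983). The pair nearest to *SOC1* had lower means in the mutant IM than in Col-0 IM, AT4G10265 with 10.08 against 20.8 TPM and AT1G04660 with 47.7 against 83.0 TPM. Both were picked by likeness to *SOC1* over the same libraries, so this is partly given by the choice, and it was not tested.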

How the data were processed

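RNA was measured in 20 libraries of hand-dissected meristems, 5 per genotype and tissue. Per the methods and the submitters' processing notes, the authors trimmed reads with fastp 0.23.4 and assigned them with kallisto 0.46.1 to TAIR10.1 transcripts, and they deposited estimated counts and TPM for 48266 transcripts. Whether a strand option was set is not given in the sources used here. Reads carried no molecular identifiers. Estimated counts were summed per locus over 27562 loci and rounded, and TPM was summed per locus to give levels. A gene entered a test when 5 or more of the fitted libraries had 10 or more counts of it. Tests used DESeq2 1.42.0 (Wald test, Benjamini-Hochberg adjustment over all genes tested, independent filtering) in R 4.3.3. The harvest group was a covariate in genotype comparisons and, nested in tissue, in the interaction. A gene was called at an adjusted p under 0.1 and a difference of over 25% (0.32 on the log2 scale). Log2 fold changes are given with SE. All other p-values printed with a gene are from these fits unless edgeR 4.0.16 (quasi-likelihood test) is named. Alternatives were edgeR, TMM factors, no filter, an adjusted p under 0.05, no fold minimum, an offset for transcript length, a fit without harvest group, a block for replicate number, a joint fit of the 20 libraries, and fits without each library in turn. Totals of 24.8 to 114.9 megacounts make counting error small for abundant genes and large near 10 counts. Samples were grouped by their labels, and p-values measure the spread between these pooled samples. Named genes are the 10 members, every gene called between genotypes or in the interaction from 4 pathway lists and a marker list, up to 4 examples of a list, and the 3 genes most like *LFY*, *AP1*, *SOC1* and *UFO*. The members and lists were chosen with earlier results of these data known. Scripts for the tests were tested on simulated data. Python 3.11.15 with pandas 2.3.3, numpy 2.4.6 and scipy 1.17.1 was used for sums and motif searches, and matplotlib 3.10.9 for plots.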

Additional observations from a re-analysis of the deposited data

Results flagged for a closer look

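In 4 of 57 groups of 5 libraries 1 library lay far from the others by Dixon's test, where chance gives about 1 in 20 groups. That rate is for normally distributed values, which groups near 0 counts do not have. *AP1* was 0.114 TPM in Col-0 SAM replicate 2 and 0 in the other 4 libraries of that group, on 3 counts, a flag that any level above 0 would have raised. In Col-0 IM *FUL* was 47.4 TPM in replicate 2 against 39.5 to 41.0 TPM in the others, *AGL42* 28.5 TPM in replicate 1 against 24.1 to 24.9 TPM, and *DRNL* 6.04 TPM in replicate 5 against 3.43 to 4.09 TPM. Col-0 IM replicate 1 was thus the Col-0 library nearest to the mutant for *AGL42*.

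The effect of the mutant differed between IM and SAM for 3 of the genes described, by the interaction test. The difference (IM minus SAM, log2) was 1.24 for *UFO* (DESeq2 adjusted p = 0.0145), 1.296 for *FLC* (5.09e-05) and -1.10 for *GL1* (0.0799). The *FLC* difference was called in all 20 fits that left out 1 library, at a DESeq2 adjusted p of at most 0.00320, and the *GL1* difference in 7 of 20.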

How the results depend on the processing

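Between genotypes in SAM, 1 member was called, 0 with edgeR (2 of the 5 tested had an unadjusted p under 0.05 by either tool), 3 in 1 fit of all 20 libraries (*LFY*, *UFO* and *AGL42*), and 0 to 1 without 1 library. In IM 2 members were called, and 2 to 4 without 1 library. For the interaction it was 1, 0 with edgeR (5 of 10 at an unadjusted p under 0.05 by either tool) and 0 to 2 without 1 library, the second being *CAL* or *FUL*. The direction turned only for effects that were not called: leaving out 1 library gave log2 values from -0.24 to 0.014 for *SOC1* and from -0.19 to 0.0429 for *AGL24* between genotypes in SAM, from -0.21 to 0.026 for *UFO* in IM, and from -2.28 to 0.40 for the interaction of *AP1*. The tissue contrasts kept the direction of every member under every alternative, and members that fell below the filter without 1 library (down to 6 tested and called in Col-0) had no value there. Counts of all genes called moved more: 87 in SAM (5 with edgeR, 149 with the replicate block, 15 to 172 without 1 library), 297 in IM (146 with edgeR, 499 without a fold minimum, 190 to 479 without 1 library) and 72 for the interaction (11 with edgeR, 39 to 240 without 1 library). The replicate numbers were not shown to pair the samples of the 2 genotypes. The correlation of deviations between same-numbered libraries was -0.08 to 0.18 for SAM and 0.09 to 0.51 for IM. In each tissue 2 of 5 libraries were best matched by their own number. Same-numbered IM libraries also shared a harvest group, so for IM this check cannot decide whether they are paired. With the replicate block the members called were the same in number, 1 in SAM, 2 in IM and 1 for the interaction, and *AGL71* in IM was not called (DESeq2 adjusted p = 0.102). Of the other genes called in IM, *FLC*, whose value is uncertain as given above, kept its call in 9 of 9 alternatives that used all IM libraries. *AGL71* kept it in 6 (DESeq2 adjusted p = 0.206 in 1 fit of all 20 libraries). *DRNL* kept it in 4 (lost with edgeR, an adjusted p under 0.05, the replicate block at 0.123, no harvest group at 0.173 and 1 fit of all 20 libraries at 0.136) and *GL1* in 3 (adjusted p 0.00361 to 0.253). *AGL72* is not counted here, because it passed the filter through the mutant libraries alone. The *GL1* interaction kept its call in 3 of 8. The causes of these shifts were not tested. Depth limits the SAM values of *AP1*, *CAL*, *FUL*, *AGL42* and *PUCHI*, which had at most 23 counts in a library.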
